A study of Homo sapiens with 3 samples.

Results

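Cytochrome P450 genes encode haem enzymes that insert oxygen into sterols, steroids, vitamins, fatty acids and drugs. The 56 genes described here are those protein-coding genes on the primary chromosomes whose symbol begins with CYP, a family number, a subfamily letter and a member number, out of 20037 protein-coding genes of the GRCh38 annotation. One of them, CYP3A7-CYP3A51P, is a read-through record over CYP3A7. The cells were THP1 of wild type genotype, a line grown from a human monocytic leukaemia, kept for 24 h in PMA, a phorbol ester that turns them towards macrophages, and analysed by chromatin immunoprecipitation sequencing. Of the 3 libraries, 1 was made with an antibody to H3K27ac, histone H3 acetylated on lysine 27 and a mark of active promoters and enhancers. Another used an antibody to SIRT1, an NAD-dependent deacetylase, and the last was an input without antibody, whose signal was not analysed here. All 3 came from PMA-treated cells, so nothing here compares treated with untreated cells. Since each antibody has a single library, no difference has a replicate check or a test, and the main counts of P450 genes are set beside those over all protein-coding genes.

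Most P450 enzymes sit in the endoplasmic reticulum and take electrons from the reductase POR, while a mitochondrial group takes them from ferredoxin. The drug-metabolising families are best known from liver and intestine and the steroidogenic enzymes from adrenal gland and gonads. Some of the sterol and vitamin D enzymes work in more tissues, macrophages included. The labelled cell type was checked against markers. H3K27ac lay at an end of 10 of 12 macrophage marker genes, with folds of 7.23 to 109, the exceptions being LYZ and CD163. It lay at an end of 2 of 12 hepatocyte marker genes, SERPINA1 and TF. Steroidogenic marker genes had it at 2 of 8, STAR and INHA, and enterocyte marker genes at 1 of 8, ANPEP. The share over all protein-coding genes was 56.7%.

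The H3K27ac list held 48735 peaks on the primary chromosomes and the SIRT1 list 95517. Each fold is the value that the authors' peak caller gave, the signal at the summit over the local background, and is used within its own list. Read totals were not stated in the labels or files. The number of fragments stacked at each summit was recovered from the fold and the p-value, with a median of 15 in H3K27ac and 3 in SIRT1 peaks. A gene was counted as marked at an end when a peak shared at least 1 base with a window reaching 1 kb inwards and outwards from the start or the stop of its record.

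H3K27ac lay at an end of 9 of the 56 genes, or 16.1%, against 56.7% of all protein-coding genes. Counting the whole record with 1 kb on both sides, 11 of 56 were marked, or 19.6%, against 64.5% of all genes. Pooled by length, the records held 44 H3K27ac summits in 1.77 Mb, or 24.9 per Mb (95% Poisson interval 18.1 to 33.4), against 23.6 per Mb over all genes. Of the peaks behind this density, 27 lay in CYP19A1, so neither the density nor its interval describes the other records. Family 4 records held 1 summit, or 2.69 per Mb (0.0682 to 15.0). The 9 genes were CYP4V2, CYP2R1, CYP1B1, CYP51A1, CYP20A1, CYP2S1, CYP46A1, CYP7B1 and CYP2U1. Where the mark was present, the median highest fold was 15.9 over the 9 genes, against 19.0 over all 11354 acetylated genes, whose quartiles were 10.0 and 33.3. Neither list had a peak in or within 1 kb of 21 P450 records, or 37.5%, against 18.4% of all genes. They were CYP17A1, CYP1A2, CYP21A2, CYP24A1, CYP26A1, CYP26B1, CYP26C1, CYP27B1, CYP27C1, CYP2A13, CYP2A6, CYP2A7, CYP2B6, CYP2C8, CYP2D6, CYP2E1, CYP2F1, CYP2W1, CYP39A1, CYP7A1 and CYP8B1.

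**Figure D1:**
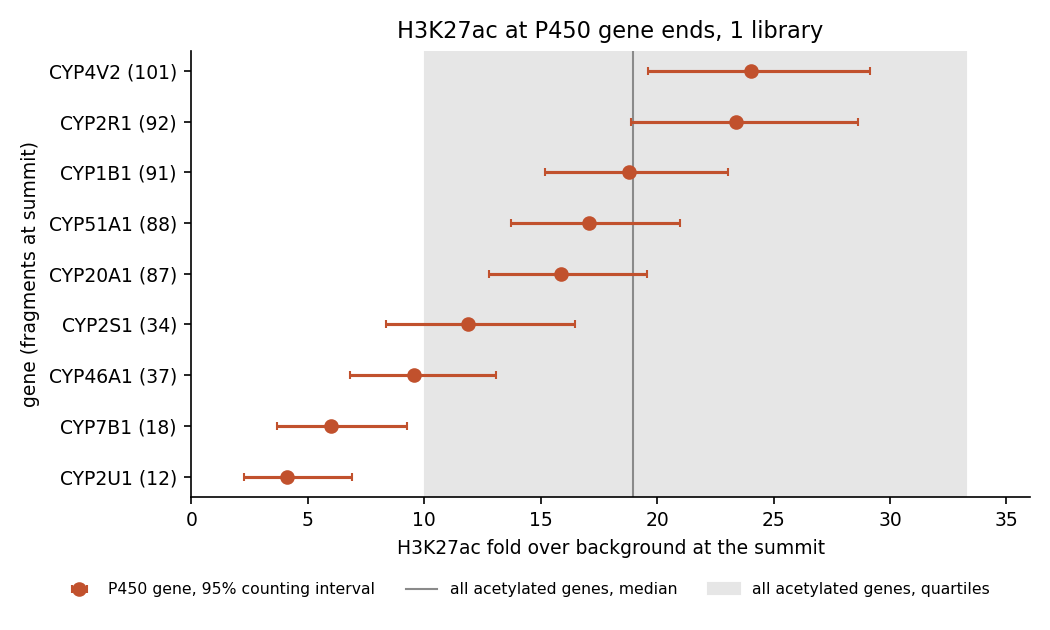
H3K27ac fold over background at the strongest gene end peak of each of the 9 acetylated P450 genes (points) with 95% Poisson intervals on the fragments at the summit, which cover counting error only; the number in brackets is the fragments. Grey marks the quartiles and median of the 11354 acetylated protein-coding genes, and 3 of the 9 P450 genes lie below the lower quartile of 10.0.

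Among the 7 sterol and bile acid genes, 3 were acetylated at an end. CYP51A1, the lanosterol demethylase of cholesterol synthesis, carried a peak of 1881 bp at chr7:92133395-92135275 with a fold of 17.1 on 88 fragments (95% counting interval of the fold 13.7 to 21.0). Its summit lay 120 bp from the right end of the record, where this minus-strand gene begins, and 206 bp from the start that RefSeq lists. The peak also overlapped the start region of the antisense RNA gene CYP51A1-AS1. CYP46A1, which hydroxylates cholesterol in neurons, had a peak at chr14:99683278-99683925 with a fold of 9.55 on 37 fragments. That peak ended 373 bp outside the record, the largest gap among the 9 genes. CYP7B1, an oxysterol hydroxylase, had a peak of 556 bp at its right end with a fold of 5.98 on 18 fragments, which also touched the uncharacterised RNA gene LOC105375879, and 4 further peaks inside its record of 212 kb with folds of 3.05 to 8.59. At CYP27A1, the mitochondrial sterol side chain hydroxylase, no peak lay at either end. The record held 4 small H3K27ac peaks with folds of 3.06 to 4.96 on 8 to 12 fragments. CYP7A1, the rate-limiting enzyme of classical bile acid synthesis, CYP8B1, which acts in cholic acid formation, and the oxysterol hydroxylase gene CYP39A1 had no H3K27ac peak in their records. The distances from these 3 records to the nearest peak were 52.7 kb, 4.96 kb and 58.0 kb.

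The vitamin D enzymes differed among themselves. CYP2R1, the main first hydroxylase of vitamin D, had the second highest fold of the 9 genes, 23.4 on 92 fragments (interval 18.9 to 28.6), at chr11:14890770-14892372. The peak stopped short of the outermost of the 3 listed starts, at 14892443, and covered the other 2, at 14892231 and 14891671. PDE3B, whose record spans this gene, overlaps the same peak. CYP27B1, which makes the active hormone, had no peak within 1 kb of an end. A peak with a fold of 40.4 on 131 fragments began 1245 bp away, just outside the window, and touched ends of METTL1 and EEF1AKMT3. CYP24A1, which breaks the hormone down, lay 11.2 kb from the nearest H3K27ac peak, with a fold of 8.61. None of these 3 genes had a SIRT1 peak in its record.

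In families 1 to 4, leaving out CYP2R1, 4 of 35 genes were acetylated at an end. In sterol and vitamin D metabolism together it was 4 of 10. Both shares lay below the 56.7% of all genes, and no test was made between the 2 groups. CYP1B1, an inducible enzyme that oxidises oestradiol and polycyclic hydrocarbons, carried a broad peak of 3372 bp at chr2:38074585-38077956 with a fold of 18.8 on 91 fragments (interval 15.2 to 23.0), its summit 177 bp from the right end. The other members of family 1, CYP1A1 and CYP1A2, had no H3K27ac peak in their records and lay 23.4 and 16.7 kb from the nearest. CYP4V2, a fatty acid hydroxylase gene, had the highest fold of the 9 genes. It was 24.0 on 101 fragments (interval 19.6 to 29.2) at chr4:186190431-186192928 over the start, where the RNA gene FLJ38576 also ends. The other 11 members of family 4, CYP4A11, CYP4A22, CYP4B1, CYP4F2, CYP4F3, CYP4F8, CYP4F11, CYP4F12, CYP4F22, CYP4X1 and CYP4Z1, had no H3K27ac peak in their records. CYP2S1 had a fold of 11.9 on 34 fragments at chr19:41193250-41195310. Its summit lay 1491 bp from the start, the peak touched the end window of the predicted gene LOC124904790 as well, and 2 weaker peaks with folds of 4.96 and 7.81 followed inside the record. CYP2U1, a fatty acid hydroxylase of brain and thymus, had the lowest fold, 4.09 on 12 fragments, in a peak of 358 bp that also lay at ends of CYP2U1-AS1 and LOC124900751. CYP20A1, an enzyme without an assigned substrate, had a fold of 15.9 on 87 fragments at chr2:203238840-203239994, with the summit 94 bp from the start. The 5 genes of family 3, CYP3A4, the main drug-metabolising enzyme, CYP3A5, CYP3A7, CYP3A43 and CYP3A7-CYP3A51P, had none. In family 2 none was found in the records of CYP2A6, CYP2A7, CYP2A13, CYP2B6, CYP2C8, CYP2C18, CYP2C19, CYP2D6, CYP2E1, CYP2F1, CYP2J2 and CYP2W1.

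**Figure D2:**
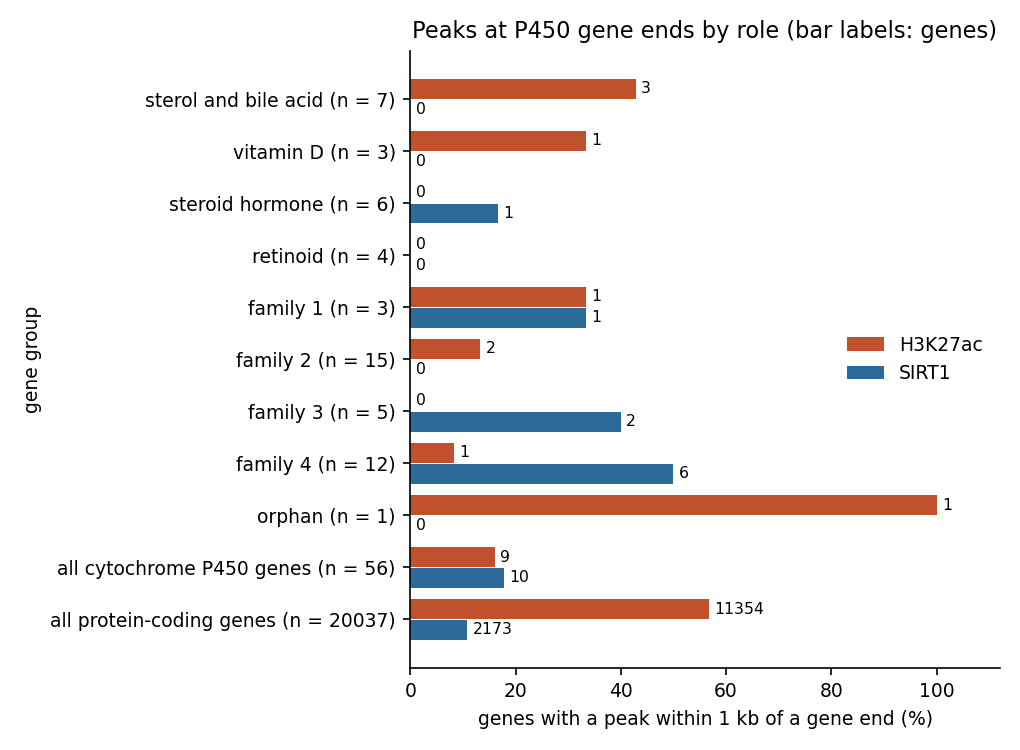
Share of genes with an H3K27ac peak (red-brown) or a SIRT1 peak (blue) within 1 kb of a gene end, in percent, for each role group of P450 genes (family 2 without CYP2R1), for all 56 and for all 20037 protein-coding genes; numbers at the bars are genes. Sterol, vitamin D and family 1 genes hold 5 of the 9 acetylated genes, and family 4 holds 6 of the 10 genes with SIRT1. The peak lists reach down to unlike thresholds, so bars can be compared within a colour only.

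The 300-base windows that RefSeq lists around gene starts, 250 bases before to 50 after, were set beside these maps. They were given for 40 of the 56 genes, in 53 entries, and for 15843 of the protein-coding genes, from build GRCh38.p14. At the 6 acetylated genes with an entry, CYP51A1, CYP2R1, CYP2S1, CYP2U1, CYP4V2 and CYP20A1, the mark lay within 1 kb of the start of the record, which is 6 of 40, or 15%, against 56.8% of all genes with an entry. Around any listed start it was 7 of 40, or 17.5%, with CYP19A1 added, against 59.4%. Windows of 3 acetylated genes are printed first, then those of CYP3A4 and the steroidogenic gene CYP17A1, which lack the mark. The last window is a start inside CYP19A1 that lies 99 bp from the summit of a peak with a fold of 21.0. They run 5′ to 3′ in the direction of transcription, and capitals mark CpG dinucleotides.
CYP51A1: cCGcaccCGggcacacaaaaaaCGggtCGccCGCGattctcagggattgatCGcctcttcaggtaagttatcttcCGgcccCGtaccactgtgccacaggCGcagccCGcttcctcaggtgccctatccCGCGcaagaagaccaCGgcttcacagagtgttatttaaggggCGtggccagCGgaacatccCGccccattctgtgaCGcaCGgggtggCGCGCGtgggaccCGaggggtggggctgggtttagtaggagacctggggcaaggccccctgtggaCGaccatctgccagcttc
CYP2R1: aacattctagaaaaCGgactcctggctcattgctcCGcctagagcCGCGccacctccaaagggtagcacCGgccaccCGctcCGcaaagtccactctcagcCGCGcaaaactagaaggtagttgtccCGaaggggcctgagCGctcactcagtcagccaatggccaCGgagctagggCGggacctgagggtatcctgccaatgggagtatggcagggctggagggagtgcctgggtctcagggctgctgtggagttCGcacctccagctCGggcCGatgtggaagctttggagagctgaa
CYP4V2: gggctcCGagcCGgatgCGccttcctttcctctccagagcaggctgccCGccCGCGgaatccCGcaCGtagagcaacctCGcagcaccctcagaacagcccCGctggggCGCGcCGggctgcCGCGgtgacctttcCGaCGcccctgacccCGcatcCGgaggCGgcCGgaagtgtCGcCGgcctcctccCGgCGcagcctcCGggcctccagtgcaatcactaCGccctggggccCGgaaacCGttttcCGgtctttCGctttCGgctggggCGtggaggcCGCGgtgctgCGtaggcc
CYP3A4: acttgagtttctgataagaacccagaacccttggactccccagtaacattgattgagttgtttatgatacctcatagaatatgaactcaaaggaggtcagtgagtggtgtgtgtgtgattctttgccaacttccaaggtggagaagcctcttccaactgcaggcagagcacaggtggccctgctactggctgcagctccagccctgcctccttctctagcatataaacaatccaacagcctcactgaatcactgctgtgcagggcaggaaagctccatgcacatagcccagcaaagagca
CYP17A1: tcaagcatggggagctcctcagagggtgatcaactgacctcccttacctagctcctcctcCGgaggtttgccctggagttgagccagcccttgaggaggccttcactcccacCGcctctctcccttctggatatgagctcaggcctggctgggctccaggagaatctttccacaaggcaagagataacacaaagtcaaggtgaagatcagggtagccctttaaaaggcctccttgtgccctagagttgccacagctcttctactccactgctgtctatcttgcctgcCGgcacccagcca
CYP19A1: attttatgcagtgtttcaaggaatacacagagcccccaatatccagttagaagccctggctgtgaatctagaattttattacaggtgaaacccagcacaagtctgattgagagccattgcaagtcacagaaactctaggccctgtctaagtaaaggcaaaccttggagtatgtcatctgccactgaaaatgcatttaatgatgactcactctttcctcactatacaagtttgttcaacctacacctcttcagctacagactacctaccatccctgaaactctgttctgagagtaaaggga
The windows are chr7:92134428-92134727 (minus strand) for CYP51A1, chr11:14892182-14892481 (minus) for CYP2R1 and chr4:186191317-186191616 (plus) for CYP4V2. For the other 3 they are chr7:99784135-99784434 (minus) for CYP3A4, chr10:102837364-102837663 (minus) for CYP17A1 and chr15:51243866-51244165 (minus) for CYP19A1. CYP4V2 held 36 CpG, CYP51A1 24 and CYP2R1 16, whereas CYP3A4 and the CYP19A1 start held 0 and CYP17A1 held 3.

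CpG content was summarised as the observed over the expected number, the count of CpG times the window length over the product of the C and G counts, at the outermost listed start of each gene. H3K27ac lay within 1 kb of that start in 7 of 40 P450 genes, those 6 and CYP19A1, against 57.5% of all genes. These 7 windows had a median ratio of 0.791, with CYP19A1 lowest at 0.0892 and CYP2R1 next at 0.530. The 33 without had a median of 0.154. Over all genes the medians were 0.854 for 9114 acetylated and 0.405 for 6729 other windows. Among P450 windows with a ratio of at least 0.6, 5 of 12 were acetylated, or 41.7%, against 75.5% of all such windows. Under 0.6 it was 2 of 28, or 7.14%, against 23.2%. These 2 were CYP2R1 and CYP19A1. The CYP2R1 peak did not overlap the outermost window, and its listed start at 14891671, which the peak covered, had a ratio of 0.768. The class also turned on the start at 3 genes without the mark. Outermost and other ratios were 0.440 and 0.957 at CYP26A1, 0.0505 and 0.913 at CYP4X1, and 0.624 and 0.507 at CYP27C1. The 7 CpG-rich windows without the mark belonged to CYP26B1, CYP26C1, CYP27A1, CYP27C1, CYP2J2, CYP39A1 and CYP4F22. They include the retinoic acid hydroxylases CYP26B1 and CYP26C1. Paralogues share ancestry, and CYP3A7 and its read-through record share a window, so these windows are not independent of each other.

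**Figure D3:**
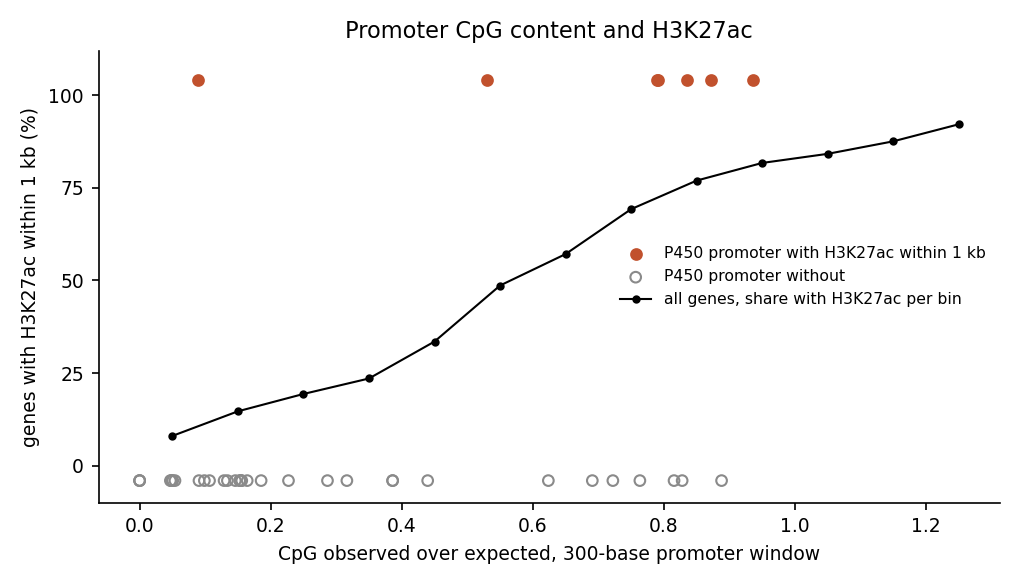
CpG observed over expected in the outermost 300-base promoter window (horizontal) against the share of all protein-coding genes with H3K27ac within 1 kb, in percent, per bin of at least 20 genes (black line). Each P450 promoter is a point, placed above the line area with the mark (7) or below it without (33); 28 of the 40 have a ratio under 0.6, 26 of these without the mark.

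Short motifs were searched in the same windows as letters on both strands unless stated. TATAAA on the transcribed strand, beginning 40 to 20 bases before the start, was found in 13 of 40 P450 windows, or 32.5%, against 3.67% of all genes. It stood in 0 of the 7 acetylated P450 windows and 13 of the 33 others. These counts use the outermost listed start of each gene, and other starts differ. TATAAA lay at −31 of the inner CYP19A1 start 51243029, under the peak with a fold of 21.0. It also lay at −31 of the inner start 93073893 of CYP26A1, which lacks the mark. Over all genes it was in 1.73% of acetylated and 6.29% of other windows. The 13 include CYP1A1, CYP1A2, CYP2E1, CYP2C8, CYP2C19, CYP3A4 and CYP3A7. In the CYP3A4 window printed above the letters are in gcatataaacaatcc, before the start. GGGCGG, the core of Sp and KLF sites, was in 37.7% of the 53 P450 entries, against 56.3% of all 22199 entries, and CCAAT in 47.2%, against 34.7%. TNGCGTG, which holds the dioxin response core, was in 1 P450 entry, CYP20A1, against 6.28% of all entries. The sterol response element of the LDL receptor promoter and GAGGAAGT, a PU.1 site, were in none of the 53 entries, against 0.0450% and 2.64% of all. None of the motifs searched contains another.

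CYP19A1 encodes aromatase, which turns androgens into oestrogens, and is known for several tissue-specific starts spread over a long first part of the gene. No peak lay within 1 kb of either end of its record, chr15:51208057-51338596. The nearest H3K27ac peaks outside stood 1720 bp beyond the stop and 2708 bp beyond the start, each with a fold of 4.13. With a window of 2500 bp the gene therefore counts as marked at an end. Inside the record lay 27 H3K27ac peaks. They covered 60.9 kb, or 46.7% of its 131 kb. Of the 1576 genes marked inside and not at an end, 7.87% of all genes, CYP19A1 had the most bases covered. Among them it ranked second by number of peaks and 47 by highest fold, with medians of 2 peaks and a highest fold of 9.31 over these genes. Among all 12930 genes with a peak in the record it ranked 16 by bases covered. The highest fold was 55.7 on 127 fragments, in a peak of 7646 bp at chr15:51221996-51229641. A peak of 7395 bp at chr15:51249099-51256493 followed with a fold of 38.9 on 75 fragments. In all, 9 of the 27 had a fold of at least 10, and the other 18 reached down to 3.05.

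RefSeq lists 7 starts for CYP19A1 in the table used, between 20.1 and 95.6 kb from the start of the record, and 5 of them lay under an H3K27ac peak. The 3 farthest from it, at 94.7, 95.4 and 95.6 kb, lay in 1 peak of 6505 bp with a fold of 21.0 on 52 fragments. The start at 82.8 kb lay in the peak with a fold of 38.9, 3.23 kb from its summit. The start at 20.1 kb lay 42 bp from the summit of a weak peak, with a fold of 3.39 on 9 fragments. The starts at 50.3 and 60.4 kb were 4207 and 907 bp from a peak with a fold of 25.3. The RNA gene MIR4713HG, which spans chr15:51037488-51293912, overlaps 15 of the 27 peaks, so the peaks cannot be assigned to aromatase alone. SIRT1 had 4 peaks in the record, with folds of 2.19 to 3.27 on 2 to 4 fragments.

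**Figure D4:**
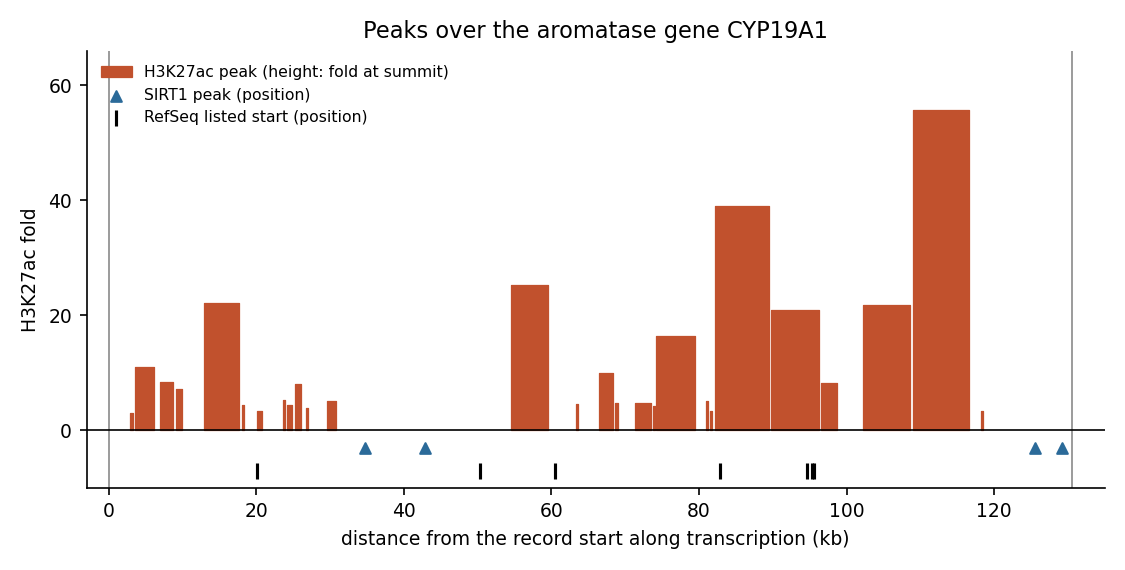
H3K27ac peaks (red-brown blocks, width to scale, height the fold at the summit) along the CYP19A1 record, with distance from its start in kb along the direction of transcription. Triangles mark the 4 SIRT1 peaks and black ticks the 7 listed starts; the highest blocks, with folds of 55.7 and 38.9, lie beyond 80 kb, and the 3 starts farthest along fall in 1 block with a fold of 21.0.

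The other steroidogenic genes had no H3K27ac peak in their records. CYP17A1, which leads to androgens and cortisol, lay 13.3 kb from the nearest H3K27ac peak, which stood at WBP1L with a fold of 28.9, and CYP11A1, the side chain cleavage enzyme, lay 14.8 kb away. CYP21A2, CYP11B1 and CYP11B2, of cortisol and aldosterone synthesis, lay 65.4, 117 and 107 kb away. The retinoid genes CYP26A1, CYP26B1, CYP26C1 and CYP27C1 lay 82.8, 50.1, 91.2 and 6.21 kb away.

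Of the 45 P450 genes without an H3K27ac peak in or within 1 kb of the record, 30 lay more than 50 kb from one, against 3415 of the 7107 protein-coding genes without a peak. Their median distance was 66.9 kb, against 45.4 kb for those 7107 genes. CYP2C8 on chromosome 10 was the farthest P450 gene, at 491 kb. The CYP4 cluster on chromosome 1, from CYP4B1 to CYP4A22, spanned 351 kb and the CYP3A cluster on chromosome 7 spanned 218 kb, both with 0. The CYP4F cluster on chromosome 19 held 1 peak in 426 kb. The cluster of CYP2A6, CYP2A7, CYP2B6, CYP2A13, CYP2F1 and CYP2S1 held 3 in 364 kb, all of them at CYP2S1. On chromosome 15, by contrast, the stretch from CYP11A1 to CYP1A2 held 28 H3K27ac peaks in 419 kb. There 5 of the 6 other protein-coding genes were acetylated at an end (SEMA7A, UBL7, ARID3B, CLK3-AS1 and EDC3), and 0 of the 3 P450 genes. Many of these clusters hold near-identical copies, as do CYP2D6 and CYP21A2. How reads that map to several copies were treated is not given in the sources used here, and its part in the missing peaks was not tested.

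**Figure D5:**
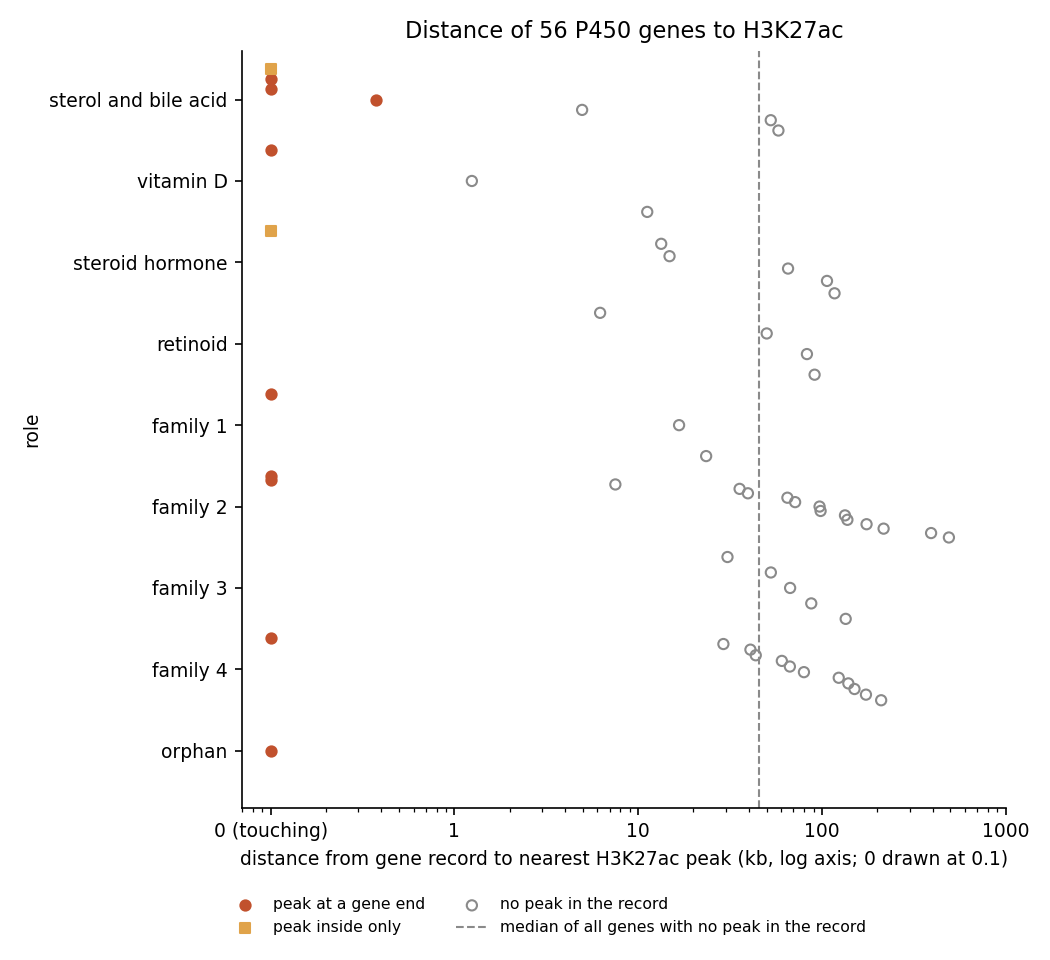
Distance in kb (log axis, 0 drawn at 0.1) from each of the 56 P450 records to the nearest H3K27ac peak, by role. Filled circles have a peak at a gene end, squares a peak inside the record only, open circles none; 30 of the 45 open circles lie beyond 50 kb, and the dashed line is the median of 45.4 kb over all genes without a peak in the record.

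SIRT1 peaks lay at an end of 10 P450 genes, or 17.9%, against 10.8% of all protein-coding genes. Counted over genes without an H3K27ac peak in the record, it was 10 of 45 P450 genes, against 1084 of 7107 of all genes. The 10 genes shared 10 distinct peaks, since 1 peak stood between CYP4X1 and CYP4Z1 and CYP4Z1 had a second. None of these genes carried H3K27ac at an end: 0 of 56 had both marks there, against 4.37% of all genes. Counted over genes acetylated at an end alone, it was 0 of 9 P450 genes, against 875 of 11354 of all genes. The SIRT1 peaks rested on very few fragments. At the summit 7 of the 10 had 2 fragments, 1 had 3 and 2 had 4. None of the 10 reached a q of 0.05, which 136 of all 95517 SIRT1 peaks did. CYP3A5, a drug-metabolising enzyme, and the fatty acid hydroxylase gene CYP4F11 had the peaks with 4 fragments, each with a fold of 3.67 and a −log10 q of 0.175. For CYP3A5 it lay at the start (chr7:99680577-99681023), for CYP4F11 beyond the other end (chr19:15911644-15911931). CYP1A1 had a fold of 2.94 on 3 fragments at the end away from its start. CYP11B2, CYP3A43, CYP4A11, CYP4A22, CYP4F22 and the second peak of CYP4Z1 had a fold of 2.20 on 2 fragments, and the peak between CYP4X1 and CYP4Z1 had 2.11 on 2. The exact 95% Poisson interval of 2 fragments is 0.242 to 7.22, so these peaks cannot be ranked among themselves. The number of genes also turned on the window. It was 3 with 500 bp on both sides, or 5.36%, against 6.27% of all genes, and 24 with 2500 bp, or 42.9%, against 23.0%. Within 1 kb of the record start it was 4 of the 40 genes with a promoter entry, or 10%, against 4.08%, and within 1 kb of any listed start 3 of 40, or 7.5%, against 5.11%.

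Counting the whole record, SIRT1 peaks were found in 30 of 56 P450 genes, or 53.6%, against 52.7% of all genes. In 20 of them, or 35.7% of the 56, no peak lay at an end, against 41.9% of all genes. H3K27ac and SIRT1 were both found in 6 of 56, or 10.7%, against 35.6%. Counted over acetylated records alone, it was 6 of 11 P450 genes, against 7143 of 12930 of all genes. These 6 were CYP19A1, CYP20A1, CYP2U1, CYP46A1, CYP4V2 and CYP7B1. Family 4, which mostly hydroxylates the ends of fatty acids, had SIRT1 peaks in 12 of 12 records and at an end of 6. Its records held 34 SIRT1 summits in 0.371 Mb, or 91.5 per Mb (95% Poisson interval 63.4 to 128). The other P450 records held 30.8 per Mb (22.3 to 41.5) and all protein-coding records 32.2 per Mb (31.9 to 32.5). CYP4X1 alone had 10 in 94.1 kb, the most of any P450 gene, with folds of 2.11 to 3.61. In the whole chromosome 1 cluster there were 30 SIRT1 peaks, or 85.5 per Mb (57.7 to 122), and their recovered background had a median of 1.12 times the lowest of the list. In the CYP4F cluster there were 25, or 58.6 per Mb (37.9 to 86.6), with a median background at the lowest value. The intervals cover counting error only. Of the 81 distinct SIRT1 peaks in P450 records, 16 had 4 or more fragments, or 19.8%, against 15.6% of all SIRT1 peaks. None of the 81 reached a q of 0.05, which few peaks of the whole list did.

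Of 45 genes that encode partners, relatives and regulators of the enzymes or the rest of cholesterol synthesis, 35 carried H3K27ac at an end, beside 9 of the 56 P450 genes and 56.7% of all genes. All 7 electron transfer genes did, led by FDX1, the mitochondrial ferredoxin, at a fold of 57.0 on 130 fragments. CYB5R3, a cytochrome b5 reductase, had 14.4 and POR 13.8. POR also had a SIRT1 peak at an end, with a fold of 2.82 on 3 fragments. Of the related enzymes whose symbols lie outside the naming rule, TBXAS1, the thromboxane synthase, had a fold of 84.6 on 188 fragments, above each of the 56 P450 genes, and PTGIS, the prostacyclin synthase, lay 110 kb from the nearest peak.

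Among 18 regulators of P450 genes, 12 were acetylated at an end, beside 56.7% of all genes. The aryl hydrocarbon receptor repressor gene AHRR had a fold of 64.0, the sterol regulator gene SREBF1 had 46.4 and NR1H3, which encodes an oxysterol receptor, had 44.7. The receptor gene AHR itself had 38.2 and the vitamin D receptor gene VDR had 10.7. The 6 without were NR1I2, NR1I3, NR1H4, NR0B2, HNF4A and NR5A1, which encode nuclear receptors best known from liver, intestine or steroidogenic tissue. SIRT1 peaks lay at an end of 4 of these, with folds of 2.94 on 3 fragments at NR0B2, 2.20 on 2 at NR1I2 and NR1H4, and 2.19 on 2 at NR1I3. Over all 45 partner genes SIRT1 lay at an end of 6, beside 10.8% of all genes. Of the 7107 genes without an H3K27ac peak in the record, 1084 had SIRT1 at an end. Of 18 cholesterol synthesis genes other than CYP51A1, 15 were acetylated at an end. IDI1 led with a fold of 91.1, followed by SQLE at 65.1, and the median was 14.4, beside 17.1 at CYP51A1. HMGCS1 was the one with SIRT1 at an end, with a fold of 3.10 on 4 fragments.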

How the data were processed

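The data are 1 H3K27ac and 1 SIRT1 peak list of PMA-treated THP1 cells; the 3 libraries include an input that was not analysed. The submitters' processing notes name MACS2 and deepTools, with hg38 as build; versions, aligner and control were not stated in the labels or files. Each deposited peak has a fold (a ratio), −log10 p and −log10 q by the authors; the deposited score, cut from −log10 q (H3K27ac) or −log10 p (SIRT1), was not used.

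Members, gene lists and tests were chosen with earlier results of these data known. Named are all P450 genes with an end peak, up to 5 marked inside only, the others by role, and per partner list the 3 genes with the highest H3K27ac fold and those with SIRT1; AHR, VDR, and the P450 genes given with a distance, were chosen after their values were seen. Results for a few of the named genes are not reported here. Promoter windows are RefSeq's (GRCh38.p14); the printed one is the listed start nearest the summit of a peak with a fold of at least 10, otherwise the outermost start. Clusters chain P450 genes within 500 kb. Fragments k and background b were solved from fold = (k + 1)/(b + 1) and a Poisson tail; 99.994% of H3K27ac and 99.999% of SIRT1 peaks gave 1 solution. Tested on simulated peaks, 100% of 1804 and 99.8% of 1323 were recovered. The simulated H3K27ac peaks had fewer fragments than those at CYP4V2, CYP2R1, CYP1B1, CYP51A1 and CYP20A1, so recovery at such numbers was not simulated. Intervals are exact Poisson and cover counting error only. Alternatives changed window, overlap, threshold and gene start. Chromosomes 1 to 22, X and Y were used. Software was matplotlib 3.10.9, scipy 1.17.1, numpy 2.4.6 and pandas 2.3.3 under Python 3.11.15.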

Additional observations from a re-analysis of the deposited data

Results flagged for a closer look

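A signal appeared in parts of both lists that no comparison here used: contigs outside the primary chromosomes held 1533 H3K27ac and 1288 SIRT1 peaks. Alternate contigs of chromosomes 6, 19 and 22, which carry CYP21A2, the CYP2A and CYP4F clusters and CYP2D6 on their primary copies, held 551, 133 and 28 of the H3K27ac peaks and 64, 26 and 22 of the SIRT1 peaks. Which genes lie under them was not analysed here.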

How the results depend on the processing

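The H3K27ac counts stayed within 1.5 times the reported ones in every setting run, with 8 to 11 of 56 genes at an end (9 reported) and 10 to 12 in the record (11 reported). CYP2S1 was lost when the summit had to lie in the window and CYP2U1 at a −log10 q of at least 5. The SIRT1 counts did not hold; the cause was not tested beyond the smaller number of peaks that stricter settings leave. Against 10 genes at an end, a window of 500 bp gave 3 and 2500 bp gave 24. Peaks on at least 4 fragments gave 2 at an end (3.57%, against 1.85% of all genes) and, against 30 reported, 13 in the record (23.2%, against 17.7%). A fold of at least 4, a q of at most 0.05 and a −log10 q of at least 5 gave 0 in both, where all genes gave 0.17%, 0.015% and 0% at an end and 2.7%, 0.23% and 0% in the record. Of the 40 genes with a promoter entry, 7 had SIRT1 at either end, 4 at the record start and 3 within 1 kb of any listed start. The last, the removal of peaks shared with other genes and that of the read-through record were chosen after seeing the data. No paired analysis was possible because there is 1 library per antibody.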
